A study of Homo sapiens with 8 samples.

Results

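B cell identity genes are the surface proteins, receptor signalling proteins and transcription factors by which a cell of the B lineage is recognised. The 34 genes examined here were listed by symbol, with earlier results of these data known. Every probe set annotated to exactly 1 of these symbols was taken. They make up 34 of 19775 genes and 109 of 41091 probe sets with 1 symbol. Of the 34, 10 encode surface proteins, 9 encode proteins of B cell receptor signalling and 15 encode transcription factors. Expression was measured on Affymetrix U133 Plus 2.0 arrays in Reh cells, an established human line from an acute lymphoblastic leukaemia of the B cell precursor type. The cells of all 4 groups were transfected: the mock group, which is the background, received control constructs, and the others received IRF5-4D, IKKβ(EE), or the pair of them (the combination). IRF5 belongs to the interferon regulatory factors, IKKβ is a kinase that activates NF-κB, and each construct is described by the submitters as a constitutively active variant. Each group held 2 arrays, numbered 1 and 3 and described as biological duplicates of a single cell line.

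B cell identity is set by a network of transcription factors. EBF1, PAX5 and the TCF3 product E2A start and hold the programme in precursors, while BCL6 and SPIB act mainly in mature germinal centre cells and PRDM1 and XBP1 drive plasma cell differentiation. The network switches on the receptor chains CD79A and CD79B, the kinases LYN, BLK, SYK and BTK that carry the signal of the receptor, and surface proteins such as CD20, the product of MS4A1. Precursor leukaemia cells carry the early part of this programme and usually little of the mature part.

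The cells matched their label on most precursor B cell markers. Of the 9 markers measured, DNTT (13.97 to 14.24 on the log2 scale over the 8 arrays), RAG1, VPREB3, PAX5, CD79A, MME and CD9 read high, whereas VPREB1 (4.06 to 4.46) and CD34 (5.62 to 5.92) read low. None of the 9 passed limma's test in any of 7 contrasts. In the combination against mock 2 had an unadjusted p under 0.05, as did 3167 of all 19775 genes. The 10 markers of T and NK cells lay between 3.74 and 6.46, the 7 of myeloid cells between 3.32 and 6.15 and the 5 of stromal cells between 2.86 and 7.82, and none of these was called by limma in any of the 7 contrasts. The mean over the myeloid markers was 4.62 and 4.77 on the mock arrays and 4.41 and 4.60 with the combination. Array lower quartiles were 3.67 to 3.73 and medians 5.10 to 5.14. Duplicate arrays had a correlation of 0.994 to 0.997 over genes. A probe set of IKBKB, the gene of IKKβ, read 4.80 and 4.06 on mock arrays 1 and 3, 12.57 and 10.98 with IKKβ(EE), and 11.11 and 9.33 with the combination. The other IKBKB probe sets did not respond in this way, with 8.89 to 9.17 and 7.15 to 7.58 over the 8 arrays. The IRF5 probe set of highest level read 0.20 above mock with IRF5-4D (limma adjusted p = 0.99) and 0.92 with the combination (adjusted p = 0.00519). Its lowest value on the 4 arrays of cells given IRF5-4D was 7.15 and its highest on the other 4 was 7.13. A second IRF5 probe set read 5.56 to 5.66 on the former and at most 5.36 on the latter. These 2 ran in the direction of the labels by small margins. The third did not separate the groups by label. It read 4.38 and 4.03 in mock, 4.27 and 4.24 with IRF5-4D, 4.20 and 4.28 with IKKβ(EE), and 4.58 and 4.39 with the combination. The position of the IRF5 probe sets relative to the construct is not stated in the sources used here.

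Promoter sequence is shown for CD72 and SPIB, which both rose in the combination and have an entry in the RefSeq promoter table, as do 24 of the 34 genes. The sequences are the 250 bases before the annotated start, printed 5′ to 3′ on the strand of the gene, from GRCh38.p14. For CD72, at chr9:35618414-35618663 on the minus strand, capitals mark 2 matches to the PU.1 core GAGGAA, the site letters of PU.1 and of its relative Spi-B. For SPIB, at chr19:50418688-50418937 on the plus strand, capitals mark a single NF-κB site match.

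CD72: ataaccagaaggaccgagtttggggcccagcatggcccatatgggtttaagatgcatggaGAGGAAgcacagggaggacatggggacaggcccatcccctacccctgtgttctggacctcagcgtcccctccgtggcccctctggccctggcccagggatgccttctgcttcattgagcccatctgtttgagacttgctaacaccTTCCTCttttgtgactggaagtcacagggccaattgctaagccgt

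SPIB: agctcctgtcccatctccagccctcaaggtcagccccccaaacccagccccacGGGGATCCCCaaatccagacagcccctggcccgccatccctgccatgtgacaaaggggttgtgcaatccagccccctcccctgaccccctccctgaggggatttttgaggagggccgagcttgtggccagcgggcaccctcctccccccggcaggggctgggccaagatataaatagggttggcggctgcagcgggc

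The CD72 matches lie at -190 to -185 on the strand of the gene and at -45 to -40 on the other strand, counted from the start. The SPIB match lies at -197 to -188 and reads as a match on both strands. Both strands were searched for 5 motifs, and neither printed match overlapped a match to another of them. Over 35116 promoter entries, 23.6% held the PU.1 core, 9.96% the NF-κB site, 3.02% a pair of spaced IRF half-sites (GAAA), 1.63% the octamer ATGCAAAT bound by POU2F2, and 1.06% the palindromic EBF site. A gene can have several entries. Counted by gene, 10 of the 24 genes with an entry held the PU.1 core, against 27.3% of all 27305 genes with one, and 3 the NF-κB site (BTK, CD24 and SPIB), against 11.8%. The IRF pair was found in FOXO1, the octamer in CD53 and the EBF site in CD24, against 3.71%, 2.03% and 1.31% of genes. A match is a description of letters and not evidence that a factor binds there.

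The combination against mock asks what both active proteins together do to expression. Of the 34 genes, 4 rose (MS4A1, LYN, CD72 and SPIB) and 1 fell (BCL6) at a Benjamini-Hochberg adjusted p under 0.05 in limma, and 29 did not pass. The background in this comparison was 3.16% of all genes called, 2.66% higher and 0.501% lower. The 34 were chosen with earlier results of these data known, so their counts beside any background here are descriptive. With IKKβ(EE) alone 1 of the 34 was called, MS4A1, against a background of 0.516%. With IRF5-4D alone 0 of the 34 were called in limma, against 0.319% of all genes. An unadjusted p under 0.05 was found for 6 of the 34 and for 1017 of all 19775 genes. The median difference from mock over the 34 was 0.03 with IRF5-4D, 0.04 with IKKβ(EE) and 0.06 with the combination, where all genes had medians of -0.02, -0.02 and -0.03. The 3 comparisons share the mock arrays. Bulk arrays cannot tell a rise in every cell from a larger rise in a share of the cells, such as those that took up the constructs.

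**Figure D1:**
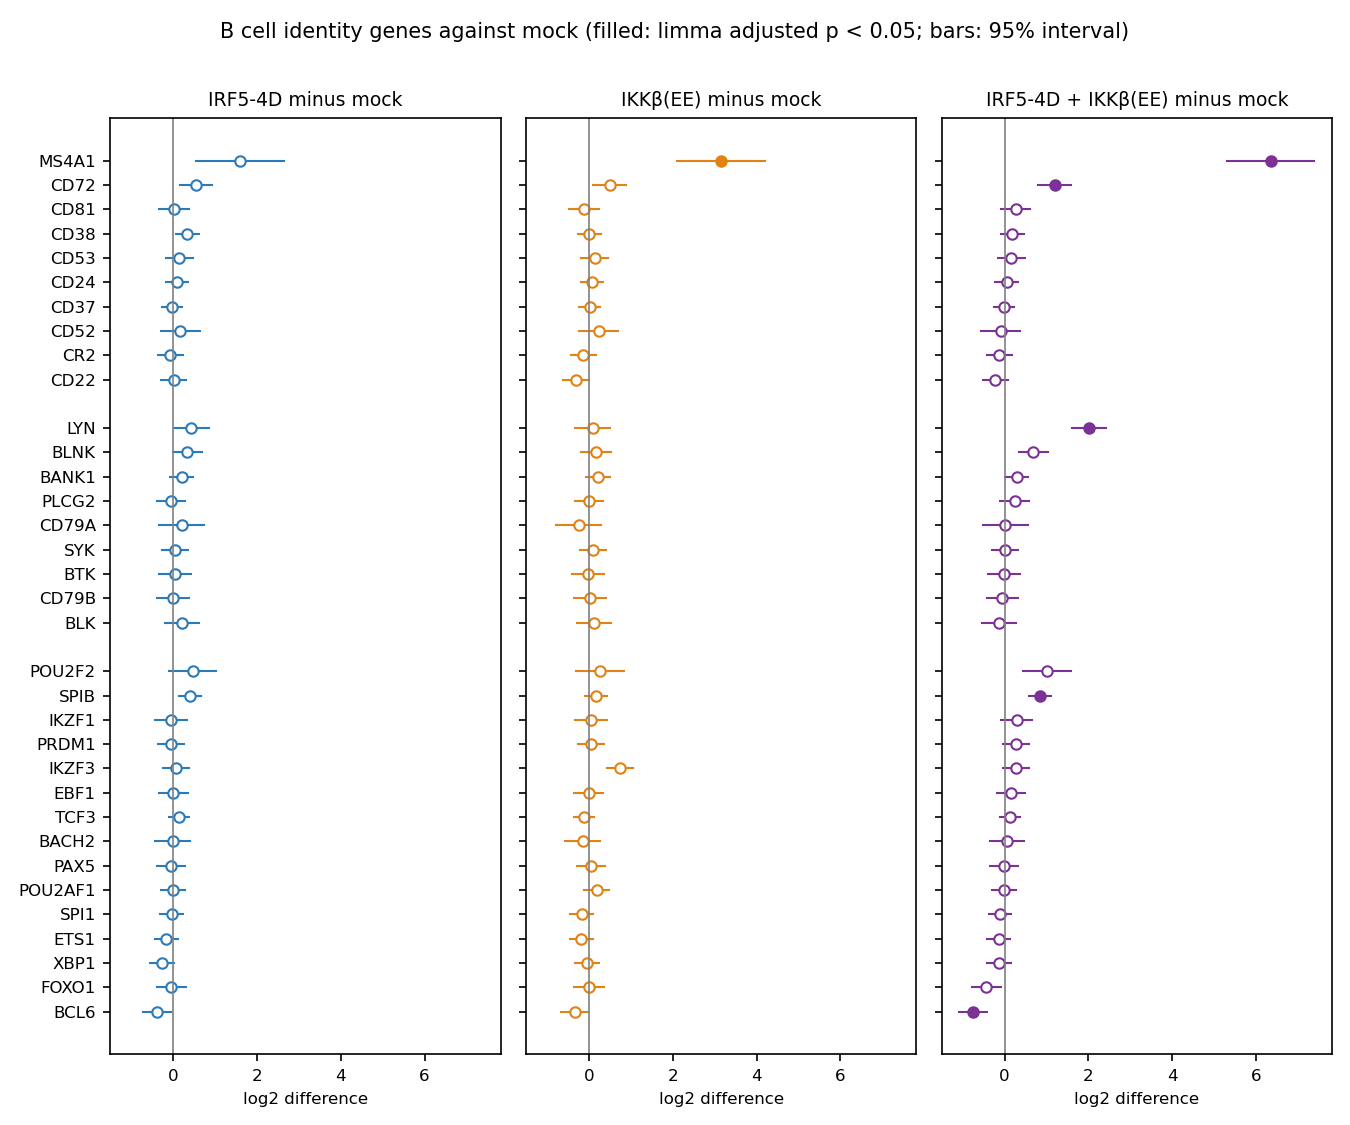
Log2 difference from mock for each of the 34 genes under IRF5-4D, IKKβ(EE) and the combination, grouped by role, with 95% intervals as bars and filled points for genes called by limma. MS4A1 stands furthest to the right at 6.35 in the combination, LYN, CD72 and SPIB follow at 2.01, 1.19 and 0.85, and BCL6 lies at -0.75.

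Over all 8 arrays 19 of the 34 (55.9%) varied by no more than 0.5 log2 units from lowest to highest, as did 57.8% of all genes. A further 11 varied by 0.5 to 1, and 4 by more than 1 (MS4A1, LYN, CD72 and POU2F2). In the combination 26 of 34 (76.5%) differed from mock by less than 0.3, against 79.4% of all genes. The 95% interval lay inside a 2-fold change for 27 (79.4%), against 93.7% of all genes. With IRF5-4D and with IKKβ(EE) that count was 32 (94.1%), against 97.4% and 96.6% of all genes. For 13 genes (38.2%) both combination arrays lay above both mock arrays, against 19.4% of all genes, and for 5 (14.7%) both lay below, against 25.1% of all genes.

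Among the surface proteins 2 of 10 rose in the combination against mock, where 2.66% of all genes rose. MS4A1 encodes CD20, a membrane protein of mature B cells that is lost in plasma cells. Its probe set of highest level read 3.13 and 3.44 on mock arrays 1 and 3, 5.03 and 4.73 with IRF5-4D, 7.16 and 5.72 with IKKβ(EE), and 10.23 and 9.04 with the combination. The 4 groups did not overlap and stood in that order. The combination was 6.35 (SE 0.46) above mock on the log2 scale, or 81.6-fold (limma adjusted p = 0.000115). The mock values lay below the lower quartile of the arrays and are not shown to be above background, so the size of every MS4A1 difference from mock, and of its interaction, is uncertain. The difference was 4.76 (SE 0.46, adjusted p = 0.00174) against IRF5-4D alone and 3.20 (SE 0.46, adjusted p = 0.00993) against IKKβ(EE) alone. The latter call was lost without IKKβ(EE) array 3 (2.48, adjusted p = 0.0569) and without combination array 1 (2.60, adjusted p = 0.0501).

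With IKKβ(EE) alone MS4A1 rose by 3.15 (SE 0.46, limma adjusted p = 0.0216). This call was lost without mock array 1 (2.99, adjusted p = 0.137), mock array 3 (3.31, 0.08), IRF5-4D array 1 or 3 (3.15, 0.0708 in both) or IKKβ(EE) array 1 (2.43, 0.135), and with the mean of all probe sets (1.66, 0.183). The IRF5-4D value was 1.59 (SE 0.46) above mock and did not pass (adjusted p = 0.654). Array 1 read above array 3 for MS4A1 by 1.43 with IKKβ(EE) and by 1.19 in the combination, but below it by 0.31 in mock. The responding IKBKB probe set read higher on array 1 in all 4 groups, and the part of construct level in the MS4A1 result was not tested. The other MS4A1 probe sets rose by 3.78, 3.77 and 2.43 in the combination, all called in the fit of every probe set, and read 1.50, 1.53 and 0.45 above mock with IKKβ(EE), with no call. Of the 4 probe sets, 2 end in _x_at and may bind several transcripts.

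CD72, a surface protein that dampens receptor signalling, has 1 probe set. It read 8.39 and 8.32 on the mock arrays, 8.76 and 9.01 with IRF5-4D, 8.98 and 8.71 with IKKβ(EE), and 9.33 and 9.76 with the combination. The single constructs overlapped with each other and lay between mock and the combination. The combination was 1.19 (SE 0.17) above mock, or 2.29-fold (limma adjusted p = 0.0059), and 0.98 to 1.41 with 1 array left out, always called. The single constructs read 0.53 (adjusted p = 0.807) and 0.49 (adjusted p = 0.515) above mock, and the combination exceeded them by 0.66 (adjusted p = 0.127) and 0.70 (adjusted p = 0.0975), none of which passed limma's test.

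CD37, a tetraspanin of mature B cells, gave different pictures in its 2 probe sets, 1 flat and 1 rising. The probe set of higher mean, which stands for the gene in the gene counts, read 5.12 to 5.20 on all 8 arrays and differed by -0.01 between the combination and mock. The other read 4.00 and 3.65 on the mock arrays, 5.06 and 5.19 with IRF5-4D, 4.71 and 4.63 with IKKβ(EE), and 7.13 and 5.94 with the combination. Both combination arrays lay above the rest, and both single constructs lay above mock. In the fit of every probe set it rose by 2.71 (SE 0.31, limma adjusted p = 0.00176). Its mock values lay near the lower quartile, so the size of the rise is uncertain. It kept the call under each of 9 alternatives and with any 1 array left out (2.12 to 3.30). It read 1.30 (adjusted p = 0.383) and 0.85 (adjusted p = 0.614) above mock with IRF5-4D and IKKβ(EE). It was higher than with IKKβ(EE) alone by 1.86 (adjusted p = 0.0216) and read 1.41 above IRF5-4D alone without a call (adjusted p = 0.0781). The former call was lost without IRF5-4D array 1 or 3 (adjusted p = 0.0576 in both), IKKβ(EE) array 1 (0.12) or IKKβ(EE) array 3 (0.168). With the mean of its probe sets as the gene value, CD37 was called in the combination against mock. Which transcripts the flat probe set binds was not tested.

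The other 7 surface genes showed no call in any contrast. They are CD22, an inhibitory lectin, the glycoproteins CD24, CD38 and CD52, the tetraspanins CD53 and CD81, and the complement receptor CR2. In the combination they lay between -0.22 (CD22) and 0.26 (CD81) of mock. CR2 read 3.30 to 3.66 over the arrays, at or under the lower quartile, so a change in it may not be measurable here.

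Among the receptor signalling genes 1 of 9 rose in the combination against mock, where 2.66% of all genes rose. LYN encodes a SRC family kinase that both starts and restrains B cell receptor signalling. It read 8.22 and 8.39 on the mock arrays, 8.76 and 8.72 with IRF5-4D, 8.49 and 8.32 with IKKβ(EE), and 10.62 and 10.02 with the combination. Only the combination arrays stood apart by more than 1 log2 unit, and IKKβ(EE) overlapped with mock. The combination was 2.01 (SE 0.18) above mock, or 4.04-fold (limma adjusted p = 0.000434). It exceeded IKKβ(EE) by 1.92 (SE 0.18, adjusted p = 0.000872) and IRF5-4D by 1.58 (SE 0.18, adjusted p = 0.00408), and the latter call was lost without IRF5-4D array 1 (1.61, adjusted p = 0.055) or array 3 (1.56, adjusted p = 0.0568). The single constructs read 0.43 (adjusted p = 0.935) and 0.09 (adjusted p = 0.96) above mock. The other LYN probe sets rose by 1.90 and 1.93 in the combination, both called.

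**Figure D2:**
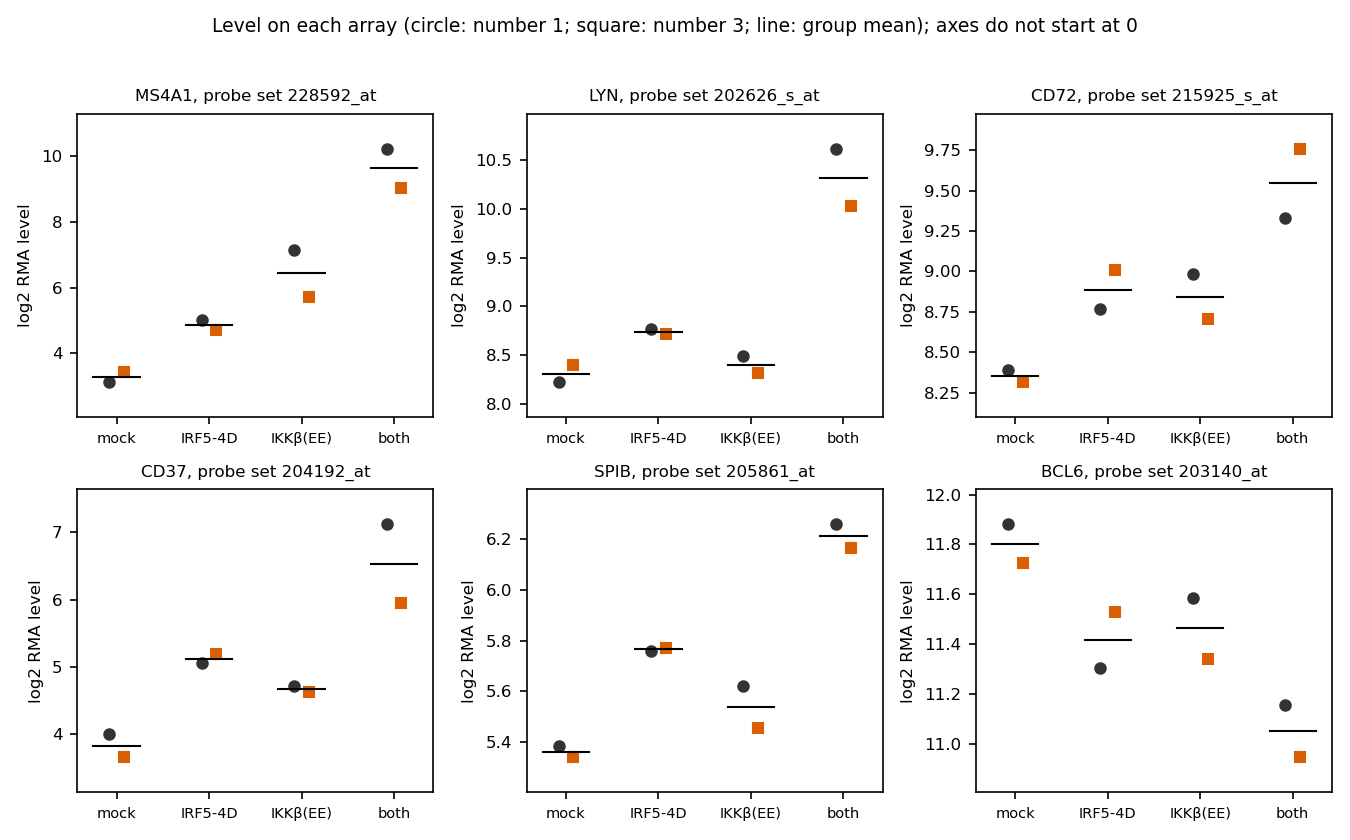
Log2 expression on each of the 8 arrays, by group, for 1 probe set each of MS4A1, LYN, CD72, CD37, SPIB and BCL6, with circles for array 1, squares for array 3 and lines at the group means. MS4A1 climbs from 3.13 and 3.44 in mock to 10.23 and 9.04 in the combination, LYN lies near its mock level until the combination, and BCL6 falls from 11.88 and 11.73 to 11.16 and 10.95.

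No change was called in the receptor chains themselves. CD79A, a signalling chain of the receptor, read 10.29 and 9.56 on the mock arrays, 10.16 and 10.08 with IRF5-4D, 9.55 and 9.81 with IKKβ(EE), and 9.72 and 10.16 with the combination. Its groups overlapped, and the combination differed from mock by 0.02 (SE 0.24, 95% interval -0.52 to 0.55). CD79B, its partner chain, read 12.49 and 12.12 in mock, 12.38 and 12.22 with IRF5-4D, 12.33 and 12.33 with IKKβ(EE), and 12.06 and 12.44 with the combination, which overlapped as well. That difference was -0.05 (95% interval -0.43 to 0.33). BLNK, the adaptor that joins SYK to its downstream enzymes, read 12.10 and 12.36 in mock and 12.88 and 12.95 with the combination. Those groups did not overlap, but the difference of 0.69 (SE 0.16) was not called by limma (adjusted p = 0.0518). The kinases SYK, BTK and BLK, the phospholipase PLCG2 and the adaptor BANK1 lay between -0.14 (BLK) and 0.29 (BANK1) of mock, and none was called. A further SYK probe set read 6.27 and 6.94 in mock and 6.97 and 7.07 with IRF5-4D. It read 7.43 and 7.25 with IKKβ(EE) and 6.62 and 6.34 with the combination. It was not called in limma, but the combination against IKKβ(EE) was called on it at an adjusted p under 0.1. BANK1 read 3.60 to 4.00, close to the lower quartile.

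Of the 15 transcription factors 1 rose and 1 fell in the combination against mock, where 2.66% of all genes rose and 0.501% fell. SPIB encodes Spi-B, an ETS factor of mature B cells. It read 5.38 and 5.34 on the mock arrays, 5.76 and 5.77 with IRF5-4D, 5.62 and 5.45 with IKKβ(EE), and 6.26 and 6.16 with the combination. The groups did not overlap. The combination was 0.85 (SE 0.12) above mock, or 1.80-fold (limma adjusted p = 0.00475), and 0.80 to 0.90 with 1 array left out, always called. The single constructs read 0.40 (adjusted p = 0.632) and 0.18 (adjusted p = 0.83) above mock. The combination exceeded IKKβ(EE) by 0.67 (SE 0.12, adjusted p = 0.0221). This call was lost without IKKβ(EE) array 1 (0.76, adjusted p = 0.0875), IKKβ(EE) array 3 (0.59, 0.226), combination array 1 (0.63, 0.111) or combination array 3 (0.72, 0.0567). The second SPIB probe set read 0.70 above mock and did not pass (adjusted p = 0.181).

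BCL6 encodes the repressor that germinal centre B cells depend on. It read 11.88 and 11.73 on the mock arrays, 11.31 and 11.53 with IRF5-4D, 11.58 and 11.34 with IKKβ(EE), and 11.16 and 10.95 with the combination. Every group with an active construct lay below mock, and the combination lay lowest. The combination fell by 0.75 (SE 0.15), or 1.68-fold (limma adjusted p = 0.0262). The call was lost without mock array 1 (-0.67, adjusted p = 0.134), mock array 3 (-0.83, 0.0525), combination array 1 (-0.86, 0.0574) or combination array 3 (-0.65, 0.125). A second BCL6 probe set read 8.54 and 8.29 in mock and 7.47 and 7.47 with the combination. It fell by 0.95 (SE 0.13, limma adjusted p = 0.00481) and kept the call with any 1 array left out. The third read -0.39 and did not pass (adjusted p = 0.284).

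No change was called in the factors that define the B lineage. PAX5, the factor that commits cells to the lineage, read 13.04 and 12.93 on the mock arrays, 12.96 and 12.91 with IRF5-4D, 13.16 and 12.93 with IKKβ(EE), and 12.80 and 13.16 with the combination. Its groups overlapped, and the combination differed from mock by -0.01 (SE 0.15, 95% interval -0.34 to 0.33). EBF1, which acts upstream of and with PAX5, read 12.80 and 12.84 in mock, 12.76 and 12.88 with IRF5-4D, 12.96 and 12.66 with IKKβ(EE), and 12.83 and 13.14 with the combination. Its difference was 0.16 (95% interval -0.18 to 0.50), with overlapping values. PRDM1, the gene of the plasma cell regulator BLIMP1, read 6.23 and 5.92 in mock, 6.10 and 5.95 with IRF5-4D, 6.10 and 6.16 with IKKβ(EE), and 6.41 and 6.30 with the combination. The combination arrays lay above both mock arrays, but the difference of 0.28 (95% interval -0.03 to 0.59) did not pass (limma adjusted p = 0.371). A second PRDM1 probe set read 5.02 and 4.29 in mock, 4.30 and 4.24 with IRF5-4D, 5.29 and 5.53 with IKKβ(EE), and 4.66 and 4.50 with the combination. IKKβ(EE) stood highest on it, 1.14 (SE 0.21) above IRF5-4D, which was not called (limma adjusted p = 0.0646) but was called with trend, array weights, the replicate block or only the 2 groups, and without mock array 1 or 3. The combination read -0.83 against IKKβ(EE) there (adjusted p = 0.125), which was called without mock array 1 or 3. The third PRDM1 probe set read 4.38 to 4.70 on all arrays.

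In 2 further factors the probe sets disagreed. POU2F2, which encodes the octamer-binding factor OCT2, read 6.88 and 6.04 on the mock arrays and 7.64 and 7.29 with the combination in its probe set of highest level. That difference was 1.01 (SE 0.25) and did not pass (adjusted p = 0.0747). Another probe set read 5.54 and 5.25 in mock, 5.85 and 5.34 with IRF5-4D, 5.29 and 5.46 with IKKβ(EE), and 6.51 and 6.36 with the combination. It rose by 1.04 (SE 0.18, limma adjusted p = 0.0178), a call lost without mock array 3 (0.90, adjusted p = 0.0853), combination array 1 (0.97, 0.106) or combination array 3 (1.11, 0.0515). The other 5 read 0.07 to 0.65 above mock without a call.

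IKZF1 encodes IKAROS, a zinc finger factor of lymphoid cells that is needed for the B lineage. Its probe set of highest level read 0.29 above mock in the combination and did not pass. Of its 9 probe sets 1 fell. This one read 7.89 and 7.89 on the mock arrays, 7.85 and 8.19 with IRF5-4D, 7.85 and 8.15 with IKKβ(EE), and 7.13 and 6.61 with the combination, so that the combination alone lay apart from the rest. It fell by 1.01 against mock (SE 0.19, limma adjusted p = 0.0275), by 1.14 against IRF5-4D (adjusted p = 0.0285) and by 1.13 against IKKβ(EE) (adjusted p = 0.0251). The call against mock was lost without mock array 1 (adjusted p = 0.122), mock array 3 (0.0902) or combination array 3 (-0.76, 0.114). The call against IRF5-4D was lost without IRF5-4D array 1 (0.11), IRF5-4D array 3 (0.217) or combination array 3 (0.104). The call against IKKβ(EE) was lost without IKKβ(EE) array 1 (0.0828), IKKβ(EE) array 3 (0.229) or combination array 3 (0.0955). Which IKZF1 transcripts the probe sets bind was not tested.

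**Figure D3:**
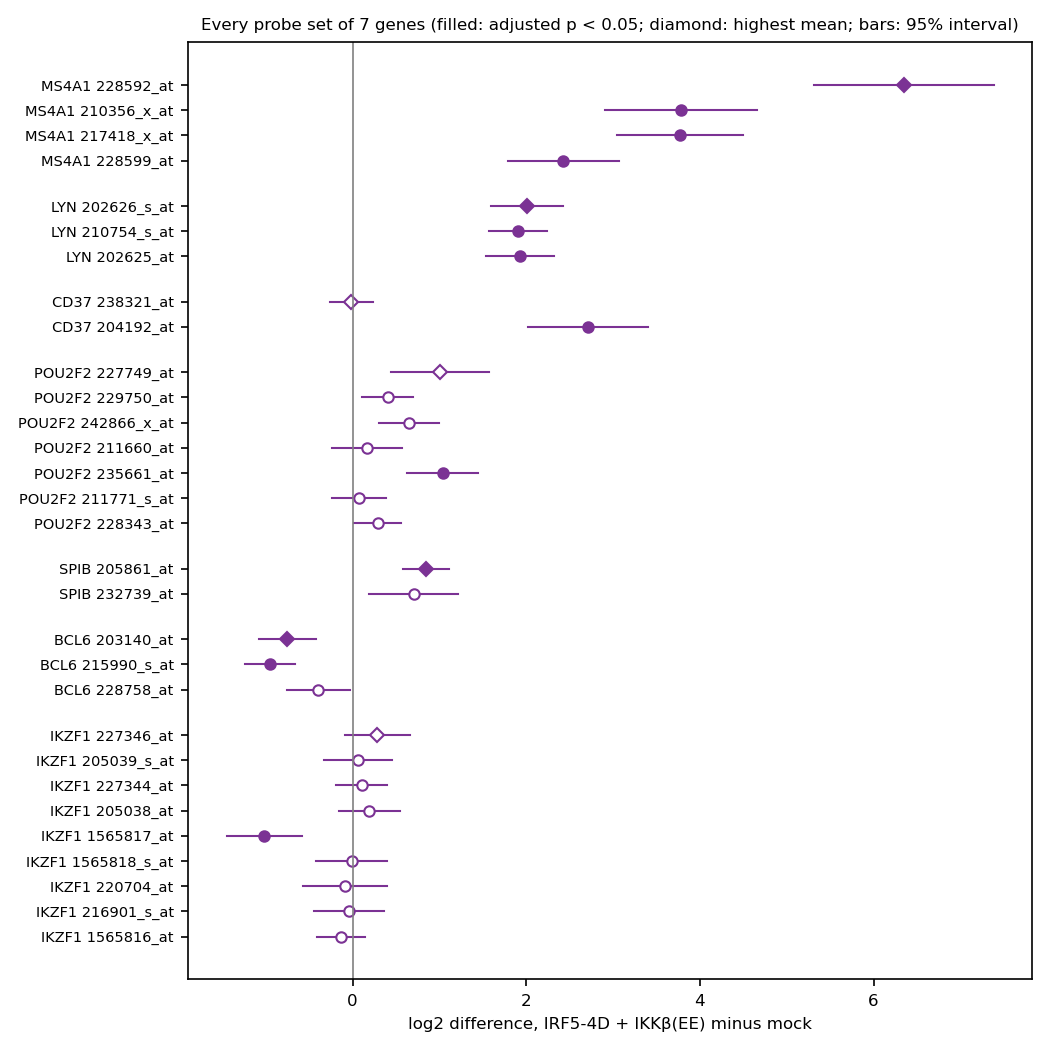
Log2 difference between the combination and mock for every probe set of 7 genes, with 95% intervals as bars, filled where limma called the probe set, and with diamonds for the probe set that stands for the gene. The 4 MS4A1 and 3 LYN probe sets all lie to the right of 0, while those of CD37 lie at -0.01 and 2.71 and those of IKZF1 between -1.01 and 0.29.

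The other 10 factors had no call in any contrast. They were the early factors TCF3, ETS1 and FOXO1, the ETS factor SPI1 (PU.1), the coactivator POU2AF1, the repressor BACH2, the IKAROS relative IKZF3 and the secretory factor XBP1, besides PAX5 and EBF1 above. FOXO1 had the lowest value in the combination, -0.44 (adjusted p = 0.201). IKZF3 read 5.75 and 5.77 on the mock arrays, 5.78 and 5.85 with IRF5-4D, 6.53 and 6.46 with IKKβ(EE), and 6.21 and 5.85 with the combination. IKKβ(EE) thus stood highest, and its difference of 0.74 (SE 0.14) from mock was not called by limma (adjusted p = 0.0672).

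The combination against each single construct asks what the second protein adds. Against IRF5-4D 2 of the 34 rose (LYN and MS4A1), with 1.41% of all genes called and 1.22% called higher. Against IKKβ(EE) 3 rose (LYN, MS4A1 and SPIB), with 1.72% of all genes called and 1.37% called higher. In the fit of every probe set 14 of 109 were called in the combination against mock (11 higher and 3 lower), where the background was 2.55%, with 2.04% higher and 0.509% lower. That count was 8 against IRF5-4D (background 1.03%) and 11 against IKKβ(EE) (background 1.38%). It was 1 with IKKβ(EE) against mock (0.37%) and 0 with IRF5-4D against mock in limma (0.243%). With IRF5-4D 9 of the 109 had an unadjusted p under 0.05, as did 2119 of all 41091 probe sets. Between IKKβ(EE) and IRF5-4D, 0 of the 34 genes (background 0.764%) and 0 of the 109 probe sets (0.594%) were called in limma. Unadjusted p was under 0.05 there for 5 of the 34 genes and 1513 of all 19775. The same held for 15 of the 109 probe sets and 2860 of all 41091.

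The interaction is the log2 value of the combination, less that of each single construct, plus that of mock. It tests whether the constructs together differ from the sum of their separate effects. None of the 34 genes passed limma's test (background 0.126%). An unadjusted p under 0.05 was found for 3 (MS4A1, LYN and IKZF3) and for 1206 of all 19775 genes. LYN had an interaction of 1.49 (SE 0.26, 95% interval 0.90 to 2.08, adjusted p = 0.116), which was called without combination array 3 (1.79, adjusted p = 0.0111). In the fit of every probe set, 1 of 109 was called (background 0.0803%), a LYN probe set. It read 8.21 and 8.23 on the mock arrays, 8.52 and 8.49 with IRF5-4D, 8.26 and 8.08 with IKKβ(EE), and 10.32 and 9.92 with the combination, far above each of the others. Its interaction was 1.66 (SE 0.21, adjusted p = 0.0323), and the third LYN probe set read 1.58 (adjusted p = 0.0877). That call held in 1 of 8 fits that left out 1 array, the one without combination array 3, where the value was 1.86. In the other 7 the value was 1.46 to 1.75 and the adjusted p 0.062 to 0.20. MS4A1 had an interaction of 1.61 (95% interval 0.14 to 3.08, adjusted p = 0.747). Its other probe sets read 1.80, 1.68 and 1.72 in the fit of every probe set, without a call (limma adjusted p = 0.531, 0.447 and 0.318). CD72, with 0.17 (95% interval -0.38 to 0.71), and BCL6, with -0.03 (95% interval -0.49 to 0.44), lay near 0. IKZF3 read -0.53 (adjusted p = 0.687). Among all member probe sets 14 of 109 had an unadjusted p under 0.05, as did 2612 of all 41091. A SYK probe set read -1.28 (limma adjusted p = 0.289), the falling IKZF1 one -1.26 (0.251) and the called POU2F2 one 0.86 (0.52).

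**Figure D4:**
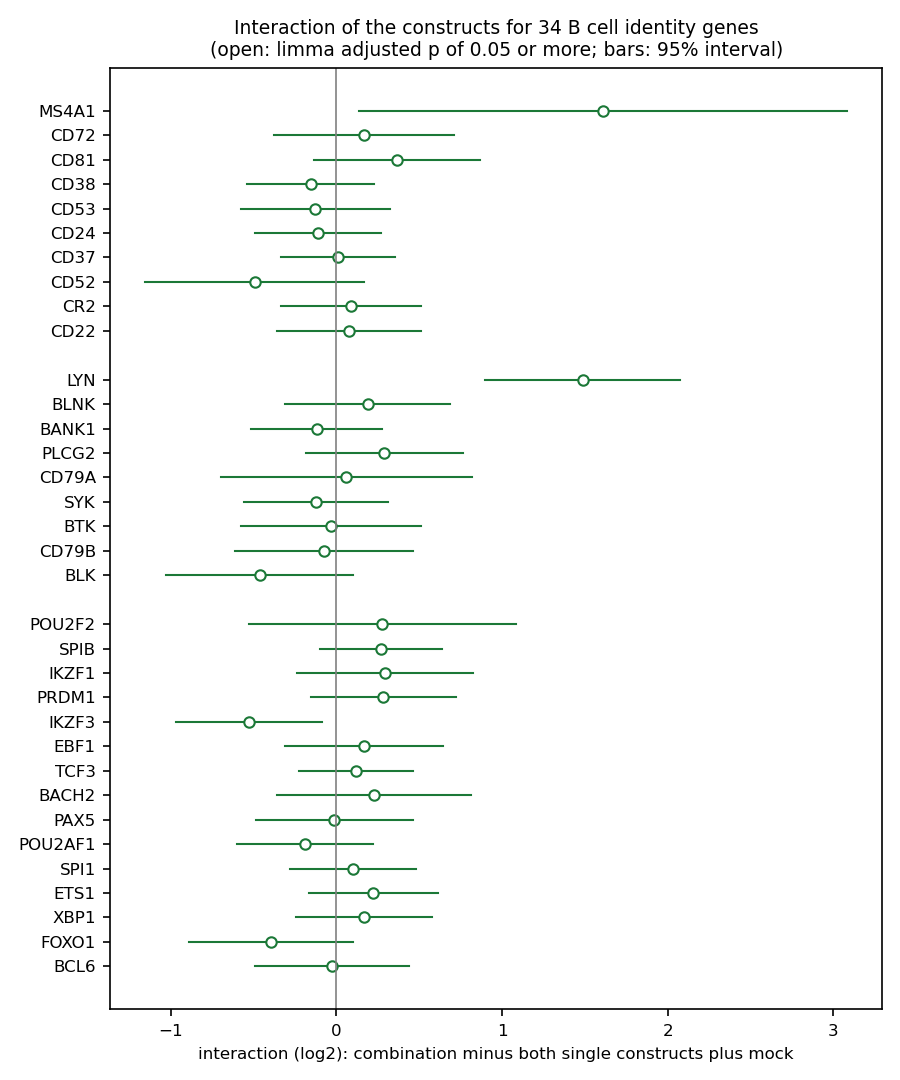
Interaction on the log2 scale for each of the 34 genes by role, with 95% intervals as bars and open points where limma's adjusted p was 0.05 or more, as for every gene here. MS4A1 at 1.61 and LYN at 1.49 lie furthest to the right, and 29 of the 34 intervals lie inside a 2-fold change.

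Of 19 other genes of the receptor pathway, 2 rose and 0 fell in the combination against mock, beside 2.66% and 0.501% of all genes. DAPP1, an adaptor that binds phosphoinositides behind the receptor, read 4.32 and 4.83 on the mock arrays, 5.80 and 5.59 with IRF5-4D, 6.37 and 5.86 with IKKβ(EE), and 10.06 and 9.04 with the combination. The single constructs lay a little above mock and the combination far above both. Its rise over mock was 4.98 (SE 0.32, limma adjusted p = 5.25e-05), with 4.47 to 5.49 when 1 array was left out. RASGRP3, a RAS activator downstream of PLCG2, read 3.84 and 3.70 in mock, near the lower quartile, and 5.89 and 5.19 with the combination, without overlap. It rose by 1.77 (SE 0.25, adjusted p = 0.0059). The inhibitory Fc receptor gene FCGR2B was the 1 of the 19 called with IRF5-4D, where 0.319% of all genes were called. It read 3.81 and 3.90 in mock, 5.07 and 4.73 with IRF5-4D, 3.52 and 3.71 with IKKβ(EE), and 3.92 and 3.97 with the combination, so that IRF5-4D alone stood above the rest. The rise of 1.05 (SE 0.14, limma adjusted p = 0.0177) lost its call without mock array 1 (adjusted p = 0.141), mock array 3 (0.0851) or IRF5-4D array 1 (0.201). FCGR2B has near-identical relatives, and its value may include their transcripts. Its values outside IRF5-4D alone lay near or under the lower quartile, so the size of its rise is uncertain. With IKKβ(EE) 0 of the 19 were called in limma, against 0.516% of all genes. Of these 19, 3 had an unadjusted p under 0.05, as did 1434 of all 19775 genes.

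Of 16 other B lineage transcription factors 2 rose and 0 fell in the combination against mock, beside 2.66% and 0.501% of all genes. In limma 0 of the 16 were called with either single construct, against 0.319% of all genes with IRF5-4D and 0.516% with IKKβ(EE). Unadjusted p was under 0.05 for 1 of the 16 with IRF5-4D, against 1017 of all 19775 genes. With IKKβ(EE) that count was 6, against 1434 of all genes. IRF4, a factor of activated B cells and plasma cells, read 6.02 and 5.32 in mock, 6.37 and 6.12 with IRF5-4D, 6.62 and 6.42 with IKKβ(EE), and 9.03 and 7.94 with the combination. The combination arrays lay above all the others, and the rise was 2.81 (SE 0.33, limma adjusted p = 0.00196). TCF12, which encodes a partner of E2A, read 10.09 and 10.09 in mock and 10.71 and 10.86 with the combination, without overlap. It rose by 0.70 (SE 0.11, adjusted p = 0.0114), a call lost without mock array 1 (adjusted p = 0.0601) or combination array 3 (0.0655). Of 5 plasma cell genes IRF4 was the 1 that rose in the combination, where 2.66% of all genes rose. MZB1, JCHAIN, SDC1 and TNFRSF17 were not called in any contrast.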

How the data were processed

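Each probe set has 1 deposited log2 value on each array, which the authors made with RMA per the submitters' processing notes. RMA corrects for background, normalizes between arrays and summarises probes, and its version and chip file are not stated in the sources used here. The table held 54675 probe sets. After 62 controls and those with no symbol (11721) or several (1801) were left out, 41091 stood for 19775 genes. A gene's value is that of its probe set of highest average level on the 8 arrays. RefSeq held 41037 of the 41091 by Entrez identifier and changed 0 symbols. No filter on level was applied. Group means were fitted to all 8 arrays with limma 3.58.1 (lmFit and eBayes) in R 4.3.3, for genes and for every probe set, with 4 residual and 5.09 prior degrees of freedom. P values were adjusted by Benjamini-Hochberg over all genes or all probe sets. The median SE was 0.14 between groups, and precision is limited by having 2 arrays in a group. P values measure the spread between these arrays. The procedure was tested on simulated data.

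The members and the lists were chosen with earlier results of these data known. The text gives each array for genes called in any contrast and for PAX5, EBF1, CD79A, CD79B and PRDM1, each probe set where those of a gene disagree, and up to 4 called genes of each other list. BLNK, IKZF3, FOXO1, a further SYK probe set and the lowest and highest values of a role were named after their values were seen. The labels join the array number to the name of the cells in every group, without saying what it stands for. Deviations of same-numbered arrays from their group means had correlations of -0.07 to 0.34. The main fit did not take the numbers as pairs, and these correlations do not decide whether they are. A replicate block took the numbers into account, and calls over all genes rose with it in every contrast. The alternatives were the mean of a gene's probe sets, no _x_at probe sets, values above the median, median centring, quantile normalization, limma with trend or array weights, a replicate block, fits of 2 groups, other thresholds and leaving out each array.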

Additional observations from a re-analysis of the deposited data

Results flagged for a closer look

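A probe set of LYN stood out because the effect of one construct differed with the other present. Its interaction was 1.66 (SE 0.21, limma adjusted p = 0.0323 over 41091 probe sets), the 1 such call among the 109 probe sets of the 34 genes. The combination read 1.90 above mock on it, and IKKβ(EE) alone overlapped with mock. The call held in 8 of 9 alternatives and in 1 of 8 fits without 1 array. The gene-level LYN interaction was 1.49 and did not pass (adjusted p = 0.116).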

How the results depend on the processing

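Of the 33 single values followed, every called one kept its sign under the alternatives and with 1 array left out. The uncalled combination differences of PAX5 (-0.18 to 0.17), CD79A (-0.35 to 0.38) and CD79B (-0.24 to 0.14) crossed 0 with 1 array left out, and those of CD79A (-0.01 to 0.02) and CD79B (-0.05 to 0.02) also did so under the alternatives. For the 34 genes the calls in the combination against mock went from 5 to 3 with genes above the median level. With a 2-fold requirement they went to 3 as well. Calls over all genes went from 625 of 19775 to 474 of 9887 in the former setting and 329 of 19775 in the latter. MS4A1 and SPIB lay below the median gene and were not tested in the former setting. The drops of the gene counts above the median are the removal of these genes. Against IRF5-4D the calls among the 34 went from 2 to 1 above the median, and those over all genes from 279 to 150. Against IKKβ(EE) the calls among the 34 went from 3 to 1 above the median and to 1 in the 2-group fit. Over all genes 340 became 179 and 225. For IKKβ(EE) against mock the count was 1, and 0 with the mean of all probe sets or above the median. It was 2 with the replicate block or an adjusted p under 0.1. Over all genes 102 became 56, 77, 191 and 162 in that order. For IKKβ(EE) against IRF5-4D the count among the 34 went from 0 to 1 with array weights, the 2-group fit or an adjusted p under 0.1. Over all genes 151 became 180, 206 and 195. For IRF5-4D against mock the count among the 34 went from 0 to 1 in the 2-group fit, and over all genes from 63 to 65. For the 109 probe sets the interaction count of 1 became 0 above the median and 2 at an adjusted p under 0.1. Over all probe sets 33 became 0 and 60. Among the 109, IKKβ(EE) against IRF5-4D went from 0 to 1 with trend, array weights, the replicate block or the 2-group fit. It went to 2 at an adjusted p under 0.1. Over all probe sets 244 became 252, 295, 376, 274 and 310 in that order. Among the 109, IKKβ(EE) against mock went from 1 to 3 with the replicate block, 0 in the 2-group fit and 2 at an adjusted p under 0.1. Over all probe sets 152 became 293, 101 and 223. Among the 109, IRF5-4D against mock went from 0 to 2 and the combination against IKKβ(EE) from 11 to 4 in the 2-group fit. Over all probe sets they went from 100 to 97 and from 569 to 271. With the replicate block 7 of the 34 genes were called in the combination against mock, adding BLNK and POU2F2. An adjusted p under 0.1 gave the same 7. The mean of all probe sets also gave 7, adding CD37 and POU2F2. Calls over all 19775 genes went from 625 to 918, 1048 and 510 in that order. What same-numbered arrays share besides the number is not stated in the sources used here.

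With 1 array left out, the gene counts ranged from 0 to 0 for IRF5-4D, 0 to 2 for IKKβ(EE) and 4 to 5 for the combination against mock. They ranged from 1 to 2 for the combination against IRF5-4D, 1 to 3 against IKKβ(EE), 0 to 1 for IKKβ(EE) against IRF5-4D and 0 to 1 for the interaction. The probe set counts in the same order ranged from 0 to 1, 0 to 2, 11 to 14, 1 to 8, 3 to 13, 0 to 1 and 0 to 5. In those fits a lone array is assumed to vary like the other groups, and calls over all genes changed as well. Values near the lower quartile, as for CR2 and BANK1, and in mock cells for MS4A1, RASGRP3, FCGR2B and the CD37 probe set that rose, are not shown to lie above background.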
